A study of Mus musculus with 17 samples.

Results

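The interleukin 1 (IL-1) family and its receptors were described in the colon of mice during experimental colitis. The set was 10 genes taken by name, of 18193 genes with a probe set of a single gene symbol on the array: the ligands Il1a, Il1b, Il33 and Il18, the antagonist Il1rn, the receptor chains Il1r1, Il1r2, Il1rap and Il1rl1, and the adapter Myd88. Of these, 9 had 16 single-gene probe sets between them, and the probe set with the highest mean over all samples stood for a gene. Il1rl1, which encodes the IL-33 receptor ST2, had no probe set under its own symbol and was not analysed here.

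Colonic mucosa was taken from CD4cre mice (3 groups, days 0, 2 and 7) and WT mice (3 groups, the same days) during a challenge with 2.5% dextran sodium sulfate (DSS) in the drinking water, which injures the colonic epithelium. Day 0 mice had no DSS. CD4cre mice were PPAR g flfl; CD4Cre+, so that the recombinase, driven by a CD4 promoter, removed PPAR γ from CD4+ and from CD8+ T cells, as T cells pass through a CD4-expressing stage in the thymus. WT mice carried no Cre, and both genotypes were on the C57BL/6J background. Total RNA was hybridised to 17 Affymetrix mouse expression arrays, 2 from WT mice on day 7 and 3 in each other group. The sources do not say if the RNA on an array was that of 1 animal or a pool, so the p-values measure the spread between these samples.

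IL-1β and IL-1α are inflammatory cytokines that bind the IL-1 receptor, which is formed by the chains encoded by Il1r1 and Il1rap and signals through the adapter MyD88 to NF-κB and MAP kinases. The protein of Il1rn occupies the same receptor without a signal, and that of Il1r2 is a decoy that binds IL-1 and does not signal. IL-33, a nuclear cytokine released by damaged stromal and epithelial cells, signals through ST2 and the Il1rap chain, and IL-18, which is stored as a precursor in gut epithelium and matured by caspase-1, has a receptor pair of its own. In the colon, members of the family are best known for the recruitment of myeloid cells and for repair after epithelial injury.

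In the RefSeq annotation of GRCm38.p6, Il1r1 lies beside Il1rl2 and Il1rl1 beside Il18r1 and then Il18rap on chromosome 1, while Il1a, Il1b and Il1rn lie on chromosome 2. Il1b, Il1r1, Il33 and Myd88 are the members that rose together in CD4cre mice on day 7. Il1rn values of day 2 lay above those of day 0 in both genotypes. For these 5 members the 250 bases before the transcription start are printed from the RefSeq promoter table of the same build. Each runs 5′ to 3′ on the strand of its gene, and capitals mark matches, on both strands, to AP-1 (TGANTCA), to C/EBP (TTNCNNNAA) and to an NF-kB consensus of 10 bases. For Il1r1 and Il33 the table holds 2 starts, and for Il1rn it holds 3; the window printed for Il1r1 belongs to its second start and those of the other genes to their first.
Il1b, chr2:129371140-129371389, minus strand: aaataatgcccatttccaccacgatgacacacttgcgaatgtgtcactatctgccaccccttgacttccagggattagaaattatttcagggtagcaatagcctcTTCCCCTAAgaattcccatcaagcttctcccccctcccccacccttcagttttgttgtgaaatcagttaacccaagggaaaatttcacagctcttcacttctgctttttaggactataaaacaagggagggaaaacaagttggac
Il1r1, chr1:40266336-40266585, plus strand: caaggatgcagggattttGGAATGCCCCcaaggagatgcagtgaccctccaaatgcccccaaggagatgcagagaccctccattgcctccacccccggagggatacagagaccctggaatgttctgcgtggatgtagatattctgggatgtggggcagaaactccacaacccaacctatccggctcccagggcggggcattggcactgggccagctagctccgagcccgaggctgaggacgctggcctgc
Il33, chr19:29924863-29925112, plus strand: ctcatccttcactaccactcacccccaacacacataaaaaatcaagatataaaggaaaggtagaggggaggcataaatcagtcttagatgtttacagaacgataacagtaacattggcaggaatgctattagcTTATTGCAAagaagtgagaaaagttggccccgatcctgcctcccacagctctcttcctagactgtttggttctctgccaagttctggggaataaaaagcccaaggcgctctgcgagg
Myd88, chr9:119340019-119340268, minus strand: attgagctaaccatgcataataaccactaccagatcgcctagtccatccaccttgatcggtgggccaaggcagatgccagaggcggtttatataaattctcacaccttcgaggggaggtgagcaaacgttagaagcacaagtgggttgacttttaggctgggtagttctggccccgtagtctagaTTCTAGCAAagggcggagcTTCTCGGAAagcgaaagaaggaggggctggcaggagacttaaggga
Il1rn, chr2:24336610-24336859, plus strand: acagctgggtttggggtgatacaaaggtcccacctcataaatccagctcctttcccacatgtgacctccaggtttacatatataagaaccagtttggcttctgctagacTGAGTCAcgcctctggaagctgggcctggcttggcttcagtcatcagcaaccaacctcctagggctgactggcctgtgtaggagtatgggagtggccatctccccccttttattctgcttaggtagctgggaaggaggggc
Over the 15 windows of the 10 genes, a C/EBP match was present in 10, against 32.9% of 32851 windows in the table, an AP-1 match in 2, against 6.75%, and an NF-kB match in 1, against 7.25%. The Il1b window held 1 C/EBP match, 145 to 137 bases before the start, and the Myd88 window held 2. The Il1r1 window printed held the NF-kB match, at 232 to 223 bases before the start. The window of the first Il1r1 start, which is not printed, held 1 C/EBP match and no NF-kB match. The Il1rn window held an AP-1 match 141 to 135 bases before the start, and the Il1a window held one 12 to 6 bases before it. Adjacent C/EBP matches of the other Il1rn starts overlapped each other, and those windows overlap as well. The matches describe the letters of these windows and were not tested against the expression values.

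All values are on the log2 scale of the authors' gcRMA processing, and an SD or a standard error (SE) is on that scale too. Values up to 3.23, the 95th percentile over 58 probe sets of genes that other tissues use, were taken as background, and 52.0% to 53.3% of all 45037 probe sets lay higher in a given sample. The list behind this level was narrowed after values were seen, and the full list gave 6.52. Folds printed below as at least are set to 3.23 and would be smaller at 6.52. Il1b was above 6.52 only in the CD4cre samples of day 7. The Pparg probe set, which reads all cells of the tissue, ranged over 8.28 to 11.21 in the 17 samples and was called in no comparison (lowest adjusted p = 0.470 from limma). Mean levels of 17 genes of colonic epithelium were 12.87 to 13.58, and those of 10 genes of T cells, the cells that carry the deletion, were 2.71 to 3.09, with 6 of the 10 above background in no sample. CD4cre day 7 replicate 2 stood apart from its group, with Pearson correlations of 0.980 and 0.978 with replicates 1 and 3, against 0.992 between those. Pancreatic enzyme genes had a median above 12 in 3 samples, against 2.69 or less in the others: replicate 2 of CD4cre day 0, replicate 1 of CD4cre day 2 and replicate 2 of WT day 2. Values that rest on these samples are given with and without them where that changed a call.

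Of the 9 members measured, 4 rose in CD4cre mice on day 7 against day 0 and none fell: Il1b, Il33, Il1r1 and Myd88. None of the 9 was called against day 0 in WT mice on day 7 or day 2, where 0.104% and 0.731% of all genes were, or in CD4cre mice on day 2 (0.0165%). None was called between days 7 and 2 in WT mice (0.335%). Across all 18193 genes, each read at 1 probe set, 8.67% were called in CD4cre mice on day 7 against day 0, and 4.35% were called higher. The median log2 difference was 1.94 over the 9 members and -0.03 over all genes. Calls here and below needed an adjusted p under 0.05 in limma, fitted to the 6 group means of the 17 samples, with Benjamini-Hochberg adjustment over 45037 probe sets.

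**Figure D1:**
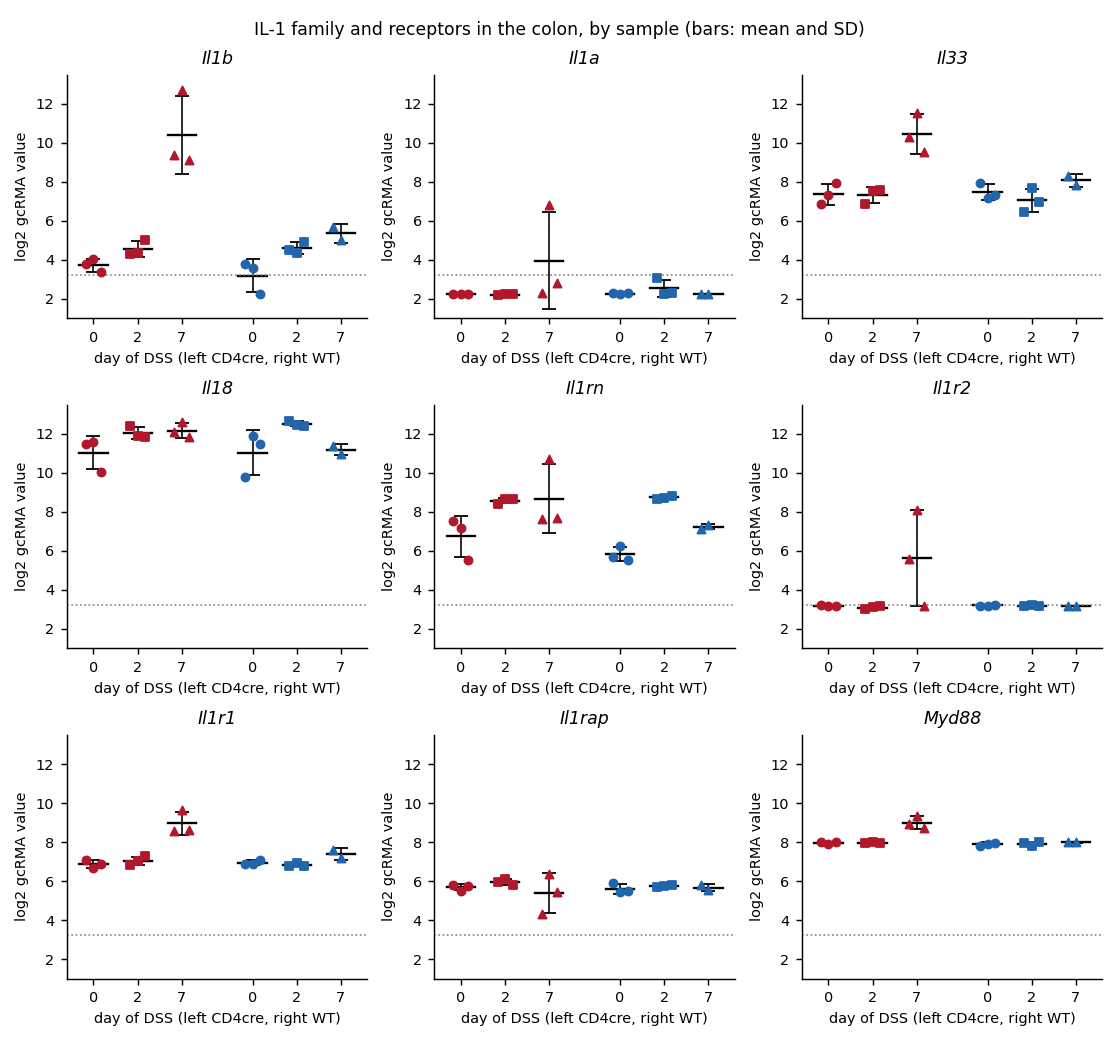
Log2 gcRMA value of each of the 9 members in each of the 17 samples, with CD4cre mice (red) left of WT mice (blue), by day of DSS; bars are the group mean and SD, and the dotted line is the background level of 3.23. Il1b, Il33, Il1r1 and Myd88 lie higher in all 3 CD4cre samples on day 7 than in any other sample, and Il1rn lies at 8.42 to 8.84 in the 6 samples of day 2.

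Il1b, which encodes the main IL-1 ligand of myeloid cells, showed the largest change of the set. It was at 9.36, 12.69 and 9.12 in CD4cre mice on day 7, against 3.76, 4.04 and 3.37 on day 0. The 3 day 7 samples lay far above the others, with replicate 2 the highest, and the groups did not overlap. The rise was 6.67 log2 units (SE 0.76, adjusted p = 0.000843 from limma, n = 3 and 3), or 102-fold. The day 0 values lay close to the background level of 3.23, so this fold rests on a low reference. On day 2 Il1b was at 4.31, 4.33 and 5.0 in CD4cre mice, and day 7 was higher than day 2 by 5.85 (adjusted p = 0.00186 from limma).

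In WT mice Il1b was at 5.70 and 5.01 on day 7, against 3.77, 3.55 and 2.24 on day 0. Both day 7 samples were above all day 0 samples, of which replicate 3 was below background. The log2 difference was 2.17 (SE 0.85, 95% interval 0.32 to 4.02), which was not called (adjusted p = 0.488 from limma). WT samples of day 2 were at 4.50, 4.35 and 4.93, so that all 6 samples of day 2 lay within 4.31 to 5.0 in both genotypes.

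On day 7 Il1b was higher in CD4cre than in WT mice by 5.04 log2 units (SE 0.85, adjusted p = 0.0191 from limma, n = 3 and 2), or 32.8-fold. The interaction, the DSS effect in CD4cre mice minus that in WT mice, was 4.50 (SE 1.14) with an unadjusted p of 0.00195 and an adjusted p of 0.155 from limma, and was not called. The genotype call rested on the 2 WT samples: the adjusted p was 0.0637 without WT day 7 replicate 1 and 0.110 without replicate 2. It was 0.0720 without the 3 samples that held pancreatic transcripts.

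Il1a, the ligand that many cells hold inside and release on injury, was above background in 1 of the 17 samples. It was at 2.27, 6.80 and 2.80 in CD4cre mice on day 7, against 2.25 in each of the 3 on day 0. The value of replicate 2, the sample that stood apart, accounted for most of the difference in means. The log2 difference was 1.71 and was not called (SE 0.84, adjusted p = 0.242 from limma). In WT mice Il1a ranged over 2.23 to 3.05 on all 3 days, below background throughout.

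Il33, the alarmin ligand of ST2, rose in CD4cre mice on day 7. It was at 10.30, 11.53 and 9.52 on day 7, against 6.86, 7.31 and 7.93 on day 0. All 3 day 7 samples were above every other sample of the study, and the group of day 2, at 6.87, 7.51 and 7.60, overlapped with day 0. The rise was 3.08 log2 units (SE 0.49, adjusted p = 0.00416 from limma), or 8.47-fold.

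In WT mice Il33 was at 8.32 and 7.83 on day 7, against 7.96, 7.15 and 7.33 on day 0. The groups overlapped, and the log2 difference of 0.59 was not called (95% interval -0.59 to 1.78, adjusted p = 0.616 from limma). On day 7 CD4cre mice were above WT mice by 2.38 (SE 0.54), just outside the threshold (adjusted p = 0.0548 from limma). That comparison passed in 5 of 28 alternatives (without CD4cre day 7 replicate 3, with either filter on low probe sets, with median centring and with array weights; adjusted p = 0.00861 to 0.0477 from limma) and did not in the other 23 (0.0521 to 0.570).

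Il18, stored in epithelial cells, ranged over 9.77 to 12.66 and was not called in any comparison. It was at 12.08, 12.60 and 11.83 in CD4cre mice on day 7, against 11.46, 11.59 and 10.07 on day 0. The groups did not overlap, and replicate 3 of day 0 was the lowest of its group. The log2 difference was 1.13 (SE 0.51, adjusted p = 0.211 from limma).

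In WT mice Il18 was at 9.77, 11.92 and 11.46 on day 0, at 12.66, 12.47 and 12.42 on day 2 and at 11.39 and 10.99 on day 7. The 3 WT samples of day 2 lay above all WT samples of the other days. CD4cre mice on day 2 were at 12.42, 11.89 and 11.86, above all CD4cre samples of day 0. Non-overlap in that direction was found for 7.34% of all genes in CD4cre mice and for 9.51% in WT mice. Among WT mice the log2 difference of day 2 from day 0 was 1.47 (adjusted p = 0.311 from limma), and that of day 7 from day 2 was -1.32 (adjusted p = 0.452). On day 7 CD4cre mice were at 11.83 to 12.60 and WT mice at 10.99 to 11.39, without overlap, and the difference of 0.98 was not called (adjusted p = 0.487 from limma).

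Il1rn, which encodes the IL-1 receptor antagonist, had its most uniform values on day 2. It was at 8.42, 8.65 and 8.65 in CD4cre mice on day 2, against 7.52, 7.18 and 5.54 on day 0. In WT mice it was at 8.67, 8.72 and 8.84 on day 2, against 5.69, 6.24 and 5.55 on day 0. In both genotypes every day 2 sample was above every day 0 sample. Of the 9 members, 4 in CD4cre mice and 3 in WT mice showed this, with Il1b and Il18 among them in both. Non-overlap in that direction was found for 7.34% of all genes in CD4cre mice and for 9.51% in WT mice. For Il1rn the log2 difference was 1.83 in CD4cre mice (SE 0.70, adjusted p = 0.631 from limma) and 2.91 in WT mice (SE 0.70, adjusted p = 0.103), and neither was called.

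A mean of the day 2 effects of both genotypes, a comparison chosen after these values had been seen, gave 2.37 for Il1rn (SE 0.50) at an adjusted p that lay at the threshold (0.049996 from limma), where 0.939% of probe sets were called. The other 2 Il1rn probe sets gave 2.32 (adjusted p = 0.0622) and 1.91 (adjusted p = 0.163). The call of the first ended with the position score described below as a covariate (0.98, adjusted p = 0.620) and without the 3 samples that held pancreatic transcripts (2.52, adjusted p = 0.227). It was also lost in 14 of the 17 fits without 1 sample (adjusted p = 0.0653 to 0.113 from limma), and held in those without a CD4cre sample of day 7.

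On day 7 Il1rn was at 7.64, 10.72 and 7.69 in CD4cre mice and at 7.14 and 7.33 in WT mice. CD4cre replicate 2 was far above its group, and the other CD4cre samples were little above the WT ones, without overlap. The difference from day 0 was 1.94 in CD4cre mice (adjusted p = 0.129 from limma) and 1.41 in WT mice (adjusted p = 0.488), and neither was called.

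Il1b relative to Il1rn was read within each array as the log2 value of Il1b minus that of Il1rn, set to 0 at the mean of the WT day 0 samples, because the values of different probe sets have no common zero. In CD4cre mice it was -1.12, -0.50 and 0.48 on day 0, -1.47, -1.68 and -1.01 on day 2, and 4.37, 4.61 and 4.07 on day 7. In WT mice it was 0.72, -0.05 and -0.67 on day 0, -1.52, -1.73 and -1.26 on day 2, and 1.20 and 0.33 on day 7. The 3 CD4cre samples of day 7 had an SD of 0.27, although replicate 2 was far higher than the others for each gene alone (SD 1.99 for Il1b and 1.76 for Il1rn). In both genotypes the mean was lowest on day 2 and highest on day 7; the samples of day 2 overlapped with those of day 0 in CD4cre mice, and those of day 7 with those of day 0 in WT mice. With the other 2 Il1rn probe sets the mean was 5.0 and 5.34 in CD4cre mice (SD 0.49 and 0.61) and 1.40 and 2.07 in WT mice on day 7. With the last of these CD4cre samples of day 2 were at -0.97 to 0.69 and overlapped with day 0. WT samples of day 2, at -1.48 to -0.93, then overlapped with those of day 0 too, the lowest of which was -1.10. This contrast was chosen after the values were seen and was not tested.

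**Figure D2:**
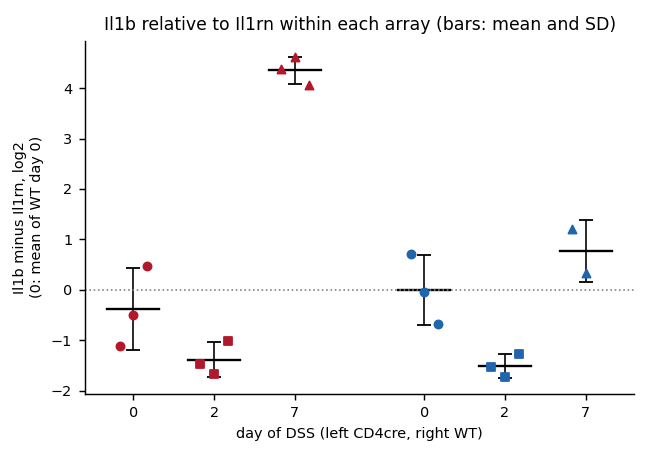
Log2 value of Il1b minus that of Il1rn in each array, set to 0 at the WT day 0 mean (dotted line), in CD4cre mice (left) and WT mice (right) by day of DSS; points are samples and bars the mean and SD. The CD4cre samples of day 7 are at 4.07 to 4.61, and all 6 samples of day 2 are at -1.01 or lower with the Il1rn probe set plotted.

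Il1r1, the signalling chain of the IL-1 receptor, rose in CD4cre mice on day 7. It was at 8.58, 9.65 and 8.64 on day 7, against 7.10, 6.69 and 6.90 on day 0. The 3 samples of day 7 were above all other samples of the study. The rise was 2.06 log2 units (SE 0.24, adjusted p = 0.000972 from limma), or 4.17-fold. A second Il1r1 probe set stayed at about 2.5 in every group, below background.

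In WT mice Il1r1 was at 7.62 and 7.17 on day 7, against 6.90, 6.86 and 7.09 on day 0. Both day 7 samples were above those of day 0, and the log2 difference of 0.44 was not called (95% interval -0.15 to 1.03, adjusted p = 0.490 from limma). CD4cre mice were above WT mice on day 7 by 1.56 (SE 0.27, adjusted p = 0.0217 from limma), or 2.95-fold. The adjusted p was 0.141 without WT day 7 replicate 2 and 0.0663 without the 3 samples that held pancreatic transcripts.

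Il1r2, the decoy receptor, was above background in 3 of the 17 samples. It was at 5.58, 8.12 and 3.19 in CD4cre mice on day 7, against 3.22, 3.17 and 3.19 on day 0. Replicates 1 and 2 of day 7 were high and replicate 3 was level with day 0, so the groups overlapped. The log2 difference was 2.44 (SE 0.83, adjusted p = 0.106 from limma), and without replicate 2 it was 1.19 (adjusted p = 0.196). Without replicate 3 it was 3.66 and was called (adjusted p = 0.00105 from limma), and it passed in 3 of the other alternatives. In WT mice Il1r2 ranged over 3.16 to 3.24 on all 3 days.

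Il1rap, the accessory chain shared by the IL-1 and IL-33 receptors, was not called in any comparison. It was at 4.32, 6.38 and 5.42 in CD4cre mice on day 7, against 5.79, 5.51 and 5.74 on day 0. The day 7 samples spread to both sides of those of day 0. The log2 difference was -0.31 (95% interval -1.10 to 0.49, adjusted p = 0.585 from limma). In WT mice Il1rap ranged over 5.43 to 5.88 on all 3 days, and no other Il1rap probe set was called on day 7 in CD4cre mice.

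Myd88, the adapter of the IL-1, IL-18 and IL-33 receptors and of most Toll-like receptors, had the smallest of the 4 rises. It was at 8.91, 9.36 and 8.73 in CD4cre mice on day 7, against 7.98, 7.92 and 8.03 on day 0. All other samples of the study were at 7.80 to 8.03, and the 3 of CD4cre mice on day 7 were above them. The rise was 1.02 log2 units (SE 0.12, adjusted p = 0.000946 from limma), or 2.03-fold.

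In WT mice Myd88 was at 7.98 and 7.99 on day 7, against 7.80, 7.93 and 7.96 on day 0, a log2 difference of 0.09 (95% interval -0.20 to 0.38, adjusted p = 0.792 from limma). CD4cre mice were above WT mice on day 7 by 1.01 (SE 0.13, adjusted p = 0.00586), or 2.02-fold. The call held in each fit without 1 sample. The interaction was 0.94 (SE 0.18, adjusted p = 0.0708 from limma), the lowest adjusted p of any member in that comparison.

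Counted by comparison, 3 of the 9 members (Il1b, Il1r1 and Myd88) were higher in CD4cre than in WT mice on day 7 and none was lower, where 2.03% of all genes were called, 0.918% higher. Samples did not overlap for 8 of the 9, all higher in CD4cre mice, against 11.4% of all genes in that direction; for Il1a and Il1r2 this included samples below background. Between days 7 and 2 in CD4cre mice, the same 4 genes as against day 0 were called, all higher, where 7.33% of all genes were called. These comparisons share the CD4cre day 7 samples, so their calls are not separate evidence.

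Between the genotypes no member was called on day 0 (0.011% of all genes) or day 2 (0.0275%), or in the interaction on day 2 (0%), and none reached an unadjusted p under 0.05 in limma there. For the interaction on day 7 no member was called in limma, where 0.159% of all genes were, and 4 had an unadjusted p under 0.05: Il1b, Il1r1, Il33 and Myd88. Without CD4cre day 7 replicate 2, the sample that stood apart, 3 of these were called, where 0.52% of probe sets were (0.14% with all samples): Il1b at 3.35 (adjusted p = 0.0371), Il1r1 at 1.27 (adjusted p = 0.0335) and Myd88 at 0.76 (adjusted p = 0.00398). Without replicate 3, which had the lowest Il1b and Il33 values of the 3, there were 5, Il33 and Il1r2 among them, where 2.98% of probe sets were called.

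Without CD4cre day 7 replicate 2, all 4 rises over day 0 in CD4cre mice were still called, at 5.52 for Il1b, 1.71 for Il1r1, 2.54 for Il33 and 0.84 for Myd88. When only the 2 groups compared were fitted, with their own spread of 3 against 3 samples, none of the 4 was called (adjusted p = 0.122 for Il1b, 0.124 for Il1r1, 0.157 for Il33 and 0.133 for Myd88, from limma). Over all probe sets, 0.0622% were called in that fit, against 6.74% with all groups.

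**Figure D3:**
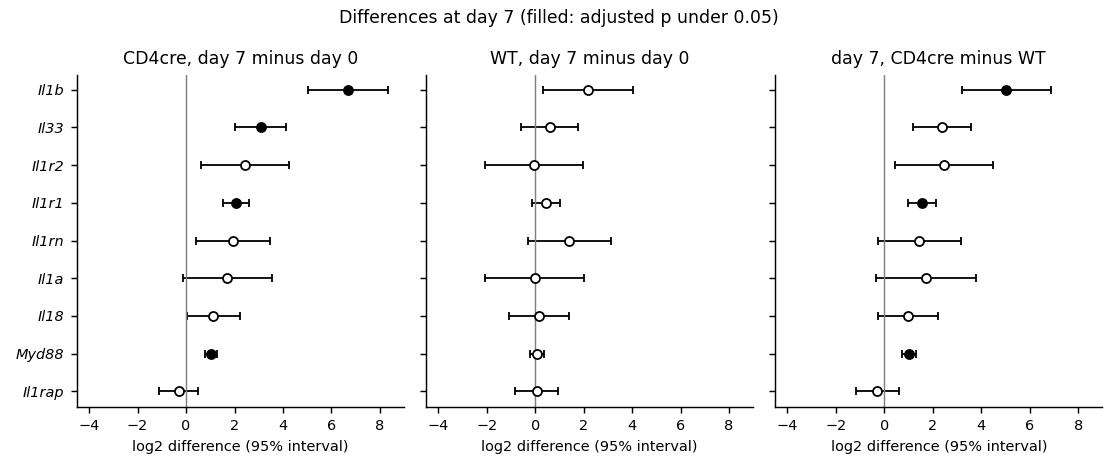
Log2 difference with its 95% interval for the 9 members, for CD4cre mice on day 7 minus day 0 (left), WT mice on day 7 minus day 0 (middle) and CD4cre minus WT mice on day 7 (right); filled points passed an adjusted p of 0.05 in limma. Il1b, Il33, Il1r1 and Myd88 are filled on the left, none in the middle, and Il1b, Il1r1 and Myd88 on the right.

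Among themselves the 4 genes that rose followed each other over the 17 samples, with Pearson correlations of 0.912 (Il1b and Il33) to 0.960 (Il1r1 and Myd88). Il1rn and Il18 had a correlation of 0.781 with each other, and Il18 and Il33 one of 0.078. These are descriptions over samples that share groups, and the CD4cre day 7 group sets much of them.

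The members were also set beside the position of each sample along the gut, as far as Hox genes show it. A position score was taken as the mean log2 value of Hox genes of higher-numbered groups, which are used towards the hind end of the gut, minus that of lower-numbered ones. In CD4cre mice it was -0.22 to 0.70 on day 0, 0.38 to 0.96 on day 2, and -0.15, 0.60 and -0.29 on day 7. In WT mice it was -0.08 to 0.59 on day 0, 1.07 to 1.27 on day 2, and -0.32 and -0.27 on day 7. Among WT samples those of day 2, which were highest for Il18, also had the highest scores, and among CD4cre samples of day 7 replicate 2 stood apart in the score as it did in Il1rn.

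Within the 6 untreated samples alone, Il1rn had a Pearson correlation of 0.880 with the score (exact permutation p = 0.0389, adjusted over 9 members 0.175) and a Spearman correlation of 0.886 (p = 0.0333, adjusted 0.15). Il33 had a Pearson correlation of -0.863 (exact permutation p = 0.00556, adjusted 0.05) and a Spearman correlation of -0.943 (p = 0.0167, adjusted 0.15). Il18 had a Pearson correlation of 0.762 (p = 0.108) and a Spearman correlation of 0.771 (p = 0.103). Without the 2 samples farthest from the median score, the Pearson correlations were 0.787 for Il1rn, -0.694 for Il33 and 0.703 for Il18 over the remaining 4. None of the 9 members passed an adjusted p under 0.05 by either measure.

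With the score as a covariate, Il1rn (2.48, adjusted p = 0.00737 from limma), Il18 (1.49, adjusted p = 0.0273) and Il1r2 (2.85, adjusted p = 0.0396) were called in CD4cre mice on day 7 against day 0 beside the 4 others, where the share of all probe sets called was 10.4%, against 6.74% without the covariate. The Il18 difference of day 2 from day 0 in WT mice was 0.062 with the covariate, against 1.47 without it, and as a mean of both genotypes it was 0.32, against 1.24. All WT samples of day 2 had higher scores than any other sample, so position and day cannot be told apart in the WT differences of day 2. The part of the position in the differences of day 2 was not tested beyond this covariate.

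**Figure D4:**
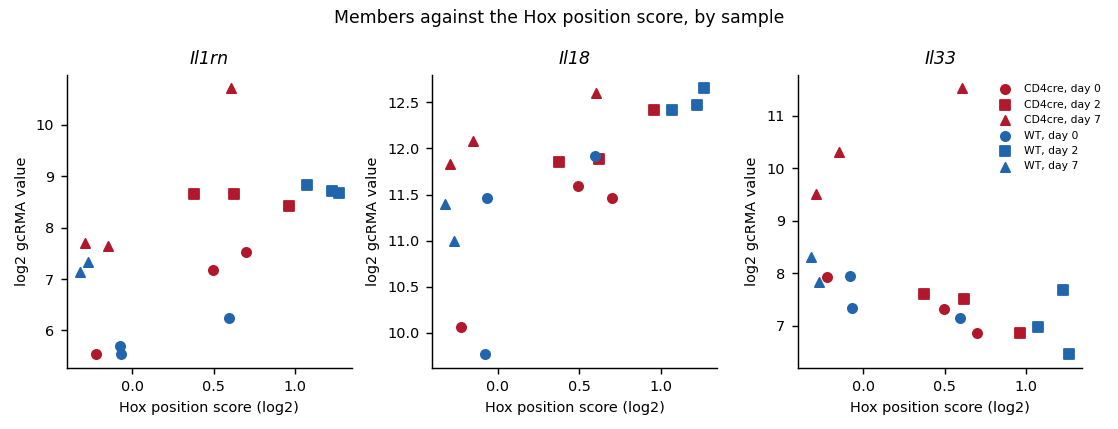
Log2 gcRMA value of Il1rn (left), Il18 (middle) and Il33 (right) against the Hox position score in each of the 17 samples; red is CD4cre and blue is WT, circles are day 0, squares day 2 and triangles day 7. Samples of WT mice on day 2 have scores of 1.07 to 1.27, and the 3 CD4cre samples of day 7 are the highest for Il33 whatever their score.

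Markers of other cell types were set beside the members. Of 19 genes of monocytes and macrophages, 18 rose in CD4cre mice on day 7 against day 0 and none fell. That is 94.7% of the list, against 4.35% of all genes called higher. Cd68 rose by 3.45 and Ccr2 by 3.41. The mean level of this list was 9.18, 10.23 and 9.11 in CD4cre mice on day 7, against 7.30 to 7.46 on day 0, and was 8.19 and 8.29 in WT mice on day 7, against 7.43 to 7.56 on day 0. As for Il1b, CD4cre replicate 2 was the highest sample of day 7 and both WT samples were below all CD4cre samples of that day. Between the genotypes on day 7, 2 of the 19 genes were called, both higher in CD4cre mice (10.5%, against 0.918% of all genes).

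Of 14 genes of neutrophils, 4 rose in CD4cre mice on day 7 against day 0 (28.6%, against 4.35% of all genes called higher). Foremost were S100a9 (at least 172-fold) and S100a8 (at least 103-fold), 2 subunits of calprotectin. Between the genotypes on day 7, 2 of the 14 were called higher in CD4cre mice (14.3%, against 0.918%). The granule genes Mpo, Elane, Ltf, Camp, Ngp and Mmp8 were above background in no sample. The mean level of the list was 4.25, 5.44 and 3.99 in CD4cre mice on day 7 and 3.20 and 3.17 in WT mice on day 7, against 2.68 to 2.85 in all other samples. Il1r2, which neutrophils express, was high in the 2 CD4cre samples with the highest levels of this list. The same 2 samples also had the highest levels of the monocyte and macrophage list and the highest Il1b values.

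Of 13 genes of fibroblasts, cells that express Il1r1 and Il33, 7 rose in CD4cre mice on day 7 against day 0. That is 53.8% of the list, against 4.35% of all genes called higher. Among the 7 were Col1a1, up by 1.77, and Pdgfra, up by 1.58. None of the 13 was called between the genotypes on day 7. The mean level of the 13 was 11.06, 12.37 and 11.12 in CD4cre mice on day 7 and 10.68, 10.93 and 11.09 on day 2, against 10.32 to 10.49 on day 0. In WT mice it was 10.8 and 10.6 on day 7 and 10.5 to 10.6 on day 2, against 10.3 to 10.6 on day 0. Endothelial and mast cell lists were highest in CD4cre day 7 replicate 2 (7.78 and 4.41), against at most 6.35 and 3.24 in the other samples. In colon RNA, more cells of a type and more RNA per cell cannot be told apart, and the part of these cell types in the members' values was not tested.

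Around the family, a list of 25 genes that IL-1 is known to induce was read. It was chosen with earlier results of these data known, so its counts are a description. Its median log2 difference in CD4cre mice on day 7 against day 0 was 2.54, against -0.03 over all genes. Of the 25, 12 rose in that comparison and none fell (48.0%, against 4.35% of all genes called higher). Among them were the metalloprotease gene Mmp3 (at least 253-fold, since day 0 was below background), the acute phase gene Saa3 (7.77, adjusted p = 0.00236 from limma), the collagenase gene Mmp13 (6.69, adjusted p = 0.00251), the neutrophil chemokine gene Cxcl2 (at least 56.1-fold, adjusted p = 0.00159) and Il6 (at least 46.1-fold, adjusted p = 4e-06). The folds given as at least hold for the background level of 3.23 and would be smaller at the 6.52 of the full list. In WT mice on day 7 the adhesion gene Vcam1 alone of the 25 was called against day 0 (2.25). That is 4.0% of the list, against 0.0989% of all genes called higher. On day 2 against day 0, 1 of the 25 was called higher in WT mice (4.0%, against 0.434% of all genes).

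Between the genotypes on day 7, 6 of the 25 were called, each with the higher level in CD4cre mice (24.0%, against 0.918% of all genes called higher). Il6 was at 8.76 ± 0.97 in CD4cre mice and at 2.14 ± 0.01 in WT mice (SD, n = 3 and 2), below background in the WT samples, and Cxcl2 was at 9.04 ± 2.54 in CD4cre mice and at 2.54 ± 0.07 in WT mice. Cxcl5 (at least 25.5-fold) and Cxcl1 (4.98, adjusted p = 0.0188 from limma) were higher as well. For Il6 the interaction was called too (adjusted p = 0.000145 from limma), with no size given because its WT and day 0 groups were below background.

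Of 19 genes of the IL-1 receptor signalling pathway, 4 rose in CD4cre mice on day 7 against day 0 (21.1%, against 4.35% of all genes), by less than 1 on the log2 scale each: Map3k3 (0.79), the NF-κB subunit Rela (0.73), the kinase Ikbkb (0.65) and Tab2 (0.41). None of the 19 was called between the genotypes. Of 21 genes of cytokine processing and the inflammasome, 1 rose in CD4cre mice on day 7 against day 0. That is near the share of all genes called higher (4.76%, against 4.35%). Between the genotypes on day 7, 1 was called as well (4.76%, against 0.918%). In both it was Gsdmd, the pore-forming gasdermin through which IL-1β leaves cells. It was higher on day 7 by 1.46 against day 0 in CD4cre mice (adjusted p = 0.000798 from limma) and by 0.87 in CD4cre against WT mice (adjusted p = 0.0414).

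Casp1, the protease that matures IL-1β and IL-18, was at 11.98 ± 0.46 in CD4cre mice on day 7, against 12.11 ± 0.17 on day 0 (SD, n = 3 each), and was not called. Nlrp3 was below background on average in every group. The further ligands of the family, 5 measured, were above background on average in no group. Of the 7 further receptors and decoys, Il18r1 was called in CD4cre mice on day 7 against day 0, with group means of 2.80 and 2.51 that are both below background.

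Of 18 genes that IL-33 is known to induce in type 2 responses, 3 were called (16.7%, against 8.67% of all genes). Chil3 (at least 16.9-fold) and Arg1 (at least 1.42-fold), genes of alternatively activated macrophages, rose in CD4cre mice on day 7 against day 0, and Retnla, of the same class, fell by 1.70 (adjusted p = 0.00678 from limma). Of 12 genes of the interferon γ axis downstream of IL-18, 3 rose (25.0%, against 4.35% of all genes called higher): Cxcl10 by 4.11, Cxcl9 by 3.45 and Gzmb by 1.66. Chil3, Arg1 and Cxcl10 were also higher in CD4cre than in WT mice on day 7 (adjusted p = 0.00918 for Chil3, 0.00432 for Arg1 and 0.0107 for Cxcl10, from limma).

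**Figure D5:**
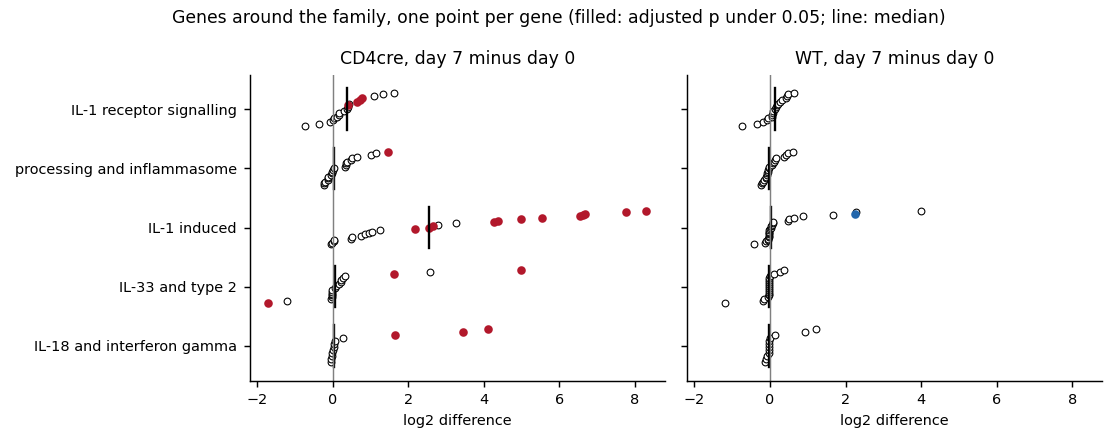
Log2 difference of each gene of 5 lists around the IL-1 family, for CD4cre mice on day 7 minus day 0 (left) and WT mice on day 7 minus day 0 (right); filled points passed an adjusted p of 0.05 in limma and vertical lines are list medians. The IL-1 induced list has 12 filled points and a median of 2.54 on the left and 1 filled point on the right.

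The genes most like each member over the 17 samples were found among 12351 genes above background in some group, as a description in which samples share groups. For Il1b they were Timp1, an inhibitor of metalloproteases, Steap4 and Osmr, the oncostatin M receptor, with Pearson correlations of 0.973, 0.973 and 0.972. For Il33 they were Ereg, an epidermal growth factor ligand (0.969), Pim1 (0.964) and Marcksl1 (0.958). For Il1r1 they were Adamts4 (0.982), Sh3pxd2b (0.980) and Slit3 (0.980), and for Myd88 they were Chil3 (0.988), Gpr146 (0.987) and Cxcl2 (0.985).

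Il18 and Il1rn had other partners. For Il18 they were Hif1a (0.906), Mgat4a (0.894) and S100a14 (0.887), and the lowest were Sgms1 (-0.936), Fbp1 (-0.915) and Hsdl2 (-0.914). For Il1rn they were Ccm2 (0.952), Myof (0.945) and 1700025G04Rik (0.934), and for Il1rap they were Emcn (0.928), Gcg (0.876) and Tusc3 (0.868). The lowest for Il1b were Cdo1 (-0.950), Aifm1 (-0.949) and Mterf4 (-0.947), and for Il33 Papss1 (-0.957), Tm7sf2 (-0.951) and Slc25a11 (-0.950). For Il1a (Atp8b4, Pilrb1 and Fgr) and Il1r2 (Rdh16, Pstpip1 and Mcpt1) the correlations of 0.987 or more rest on CD4cre day 7 replicate 2 for most of their range. Both the lowest Il1rap value (4.32) and the highest (6.38) came from CD4cre mice on day 7. The Il1rap correlations rest on that group for most of their range.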

How the data were processed

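The authors read the 17 arrays in R 2.9.0 and processed them together with gcRMA, which corrects for background, normalizes between arrays and summarizes probes, so the deposited values are on the log2 scale (0.76 to 16.5). Raw arrays were not analysed here. Of 45101 probe sets, 64 controls were left out and 45037 were tested without a filter; 34945 carry 1 gene symbol, 932 several and 9160 none. The number of arrays limits the precision.

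A model of 6 group means was fitted in limma (version 3.58.1, R 4.3.3) and moderated by empirical Bayes, with 11 degrees of freedom from residuals and 0.888 from the prior. It gave 11 comparisons: days of DSS against day 0 and against each other within a genotype, CD4cre against WT mice by day, and the interactions of genotype with days 2 and 7. Tests were two-sided, with Benjamini-Hochberg adjustment within a comparison. Position scores were correlated with scipy 1.17.1 and exact permutation. Where all samples of a group lay below background, the fold was taken to the level of 3.23 and is printed as at least that fold; the list behind that level, genes of other tissues, was narrowed after values were seen (6.52 with the full list of 119 probe sets). The fit was tested on simulated data. The members and lists were chosen with earlier results of these data known. Named genes were all members, the 4 most changed called genes of a list in a comparison, genes that define a list, and the 3 genes most like each member; Nlrp3 and Casp1 were named after their values were seen. Alternatives were other thresholds, filters, normalizations, weights, probe set rules and sample choices.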

Additional observations from a re-analysis of the deposited data

How the results depend on the processing

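The counts of members called depended on how the spread was estimated and on other processing choices. When only the groups compared were fitted, 0 members were called in CD4cre mice on day 7 against day 0 (4 with all groups), 0 on day 7 against day 2 (4) and 0 between the genotypes on day 7 (3), while 1 was called in WT mice on day 2 against day 0 (0) and 1 in WT mice on day 7 against day 2 (0). Of all probe sets, these fits called, in the same order, 0.0622%, 0.0222%, 0.00444%, 0.129% and 1.58%. With all groups the shares were 6.74%, 5.42%, 1.51%, 0.449% and 0.244%. With array quality weights, whose fit did not converge and which ran from 0.207 for CD4cre day 7 replicate 2 to 16.6 for WT day 0 replicate 1, 4 were called on day 2 against day 0 in WT mice, where 18.4% of probe sets were, 1 on day 7 against day 0 in WT mice (5.54%), 3 between the genotypes on day 0 (18.7%) and 4 in the difference of DSS effects on day 7 (3.83%), against 0 members each. A filter on low probe sets gave 1 in WT mice on day 2 against day 0, also with the narrowed background list, an alternative chosen after seeing the data. The position score as a covariate gave 7 in CD4cre mice on day 7 against day 0, where 10.4% of probe sets were called. Median centring of the arrays gave 6 in that comparison, where 40.0% of probe sets were called. Between the genotypes on day 7, 1 remained without the samples that held pancreatic transcripts and 1 at an adjusted p under 0.01, Myd88 in both. The cause was not tested.

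Fits without 1 of the 17 samples each gave 4 to 5 members in CD4cre mice on day 7 against day 0 and against day 2, 1 to 5 between the genotypes on day 7, 0 to 1 in WT mice on day 2 against day 0 (1, Il1rn, without CD4cre day 7 replicate 2) and 0 to 5 in the difference of DSS effects on day 7, where 20 to 1340 of 45037 probe sets were called. In that difference Il1rn turned to -0.55 and Il18 to -0.56 with array weights, and Il1rap to 0.031 with the mean of its probe sets. Over the fits without 1 sample, Il1rn ranged from -0.49 (without CD4cre day 7 replicate 2) to 1.05, with -0.073 without CD4cre day 0 replicate 3, and Il1rap ranged from -0.87 to 0.17 (without CD4cre day 7 replicate 1). With the position score, Il18 in WT mice on day 7 against day 2 turned to 0.69, and the difference of DSS effects on day 2 turned to 0.47 for Il1b, 0.85 for Il1a, 0.35 for Il1rn and 1.00 for Il1r2; none of these was called. Same-numbered replicates did not deviate together in a consistent way, with 15 of 40 correlations over 0.1 and a range of -0.45 to 0.51. The labels name no pairing, and the numbers were not read as one. With the replicate number as a block, 4, 4 and 3 members were called in the same 3 comparisons and 0 in the others.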
